A study of Rattus norvegicus with 9 samples.

Results

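Transcripts of red blood cells and neutrophils were followed in RNA of whole rat brain, which still holds some blood unless its vessels are flushed. The set has 5 genes, chosen by name among the 19621 gene names of the deposited assembly: the red-cell genes Hbb, Alas2 and Slc4a1 and the neutrophil genes S100a8 and S100a9. Where a name had several loci on the gene's own strand, the locus with the highest mean count was used. All 5 genes were among the 39057 loci that passed the filter on low counts, out of 114601 loci in the count table. The animals were 9 alcohol-naive male rats on a Wistar background, 3 per genotype, and treatment was none for all. The wild types were Wistar rats bought from Charles River. The heterozygous (Lrap-/+) and homozygous (Lrap-/-) rats belonged to the line Crl:WI-Lrapem1Geh, in which CRISPR/Cas9 removed 618 bp of the long non-coding RNA gene Lrap. The wild types thus differed from the mutants in source too, so source, line and genotype cannot be told apart in a comparison with wild type. The labels do not say whether the brains were flushed of blood, at what age they were taken, or how many founder rats the line came from.

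Red blood cells of mammals have no nucleus, but their youngest form, the reticulocyte, still carries the messenger RNAs of its last stage of differentiation. Hbb encodes a beta chain of haemoglobin. Alas2 encodes the erythroid form of 5-aminolevulinate synthase, which catalyses the rate-limiting step of haem synthesis. Slc4a1 encodes band 3, the anion exchanger that anchors the cytoskeleton to the red-cell membrane. S100a8 and S100a9 encode the subunits of calprotectin, a calcium-binding protein pair that fills much of the neutrophil cytosol. In healthy brain tissue few neutrophils lie outside the vessels.

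Bases before the annotated start were at hand in RefSeq (build GRCr8) for Hbb, Alas2 and S100a9, 3 of the 5 genes. The windows of 250 bases before the start of Hbb (chr1:167663722-167663971, minus strand) and S100a9 (chr2:178490623-178490872, minus strand) are shown. These genes come 1 from each of the 2 sets of correlated genes described below, which did not follow the cell type. The annotated start of Alas2 lies just before its coding sequence, so its window is not shown. Capitals mark matches on either strand to 5 motifs whose forms were chosen after the sequences were seen.
Hbb: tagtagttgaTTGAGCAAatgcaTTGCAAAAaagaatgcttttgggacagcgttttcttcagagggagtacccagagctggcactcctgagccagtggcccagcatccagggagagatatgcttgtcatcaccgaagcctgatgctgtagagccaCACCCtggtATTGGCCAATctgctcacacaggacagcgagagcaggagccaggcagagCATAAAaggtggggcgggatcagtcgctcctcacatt
S100a9: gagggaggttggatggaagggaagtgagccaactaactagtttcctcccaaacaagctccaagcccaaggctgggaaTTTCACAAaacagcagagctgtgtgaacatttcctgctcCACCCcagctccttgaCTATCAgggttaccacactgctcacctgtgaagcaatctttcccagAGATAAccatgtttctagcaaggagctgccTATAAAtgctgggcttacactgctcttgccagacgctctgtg
The Hbb window held 1 CACCC at -95 from the start, an inverted pair of CCAAT letters at -86 and -81, CATAAA at -37, and 2 matches to TTNCNNAA, the core of a C/EBP-type site. The CCAAT matches stand side by side without overlap. The S100a9 window held 1 match to TTNCNNAA at -173, CACCC at -134, matches to the GATA forms at -118 and -72, and TATAAA at -42. Of 33469 RefSeq windows of the same length, 49.2% held CACCC, 34.0% CCAAT, 37.2% TTNCNNAA, 22.0% TATAAA or CATAAA, and 27.0% a GATA form (AGATAA, or the same with T first, G last or both). Each motif is thus common in such windows.

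Libraries held 27489383 to 46975919 expected counts, and levels are given as CPM, counts scaled to 1 common library size with TMM factors. The isoform of the locus named LRAP whose exon holds the 618 bases was at 2.27 ± 0.352 CPM (wild type), 1.04 ± 0.0610 (heterozygous) and 0.344 ± 0.0864 (homozygous; SD, n = 3 each), and no libraries of different genotypes overlapped. Mitochondrial transcripts took 14.8% to 28.1% of counts in 8 libraries and 40.4% in wild-type rat 2. The proportions of the spike-in loci fell into 2 patterns, the first in wild-type rats 1 and 3 and the heterozygous rats, the second in wild-type rat 2 and the homozygous rats, which bears on every comparison with homozygous rats. Brain transcripts were abundant throughout: the synaptic gene Snap25 lay between 297 and 509 CPM and the myelin gene Mbp between 1026 and 2333 CPM.

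Hbb was among the more abundant named transcripts of these brain samples. By the authors' TPM, which divide by transcript length, it ranked 106 of 19279 named loci, whereas Alas2 ranked 7413, S100a9 8085, S100a8 8385 and Slc4a1 12870. The mean TPM of Hbb in wild-type rats was 312 ± 139, beside 3.93 ± 2.93 for S100a8, 3.72 ± 1.53 for Alas2, 3.58 ± 2.88 for S100a9 and 0.703 ± 0.155 for Slc4a1 (SD, n = 3). Part of the Slc4a1 value came from very short assembled isoforms, and its annotated isoform alone was at 0.547 ± 0.272 TPM. Values below are in CPM unless TPM is named. In such bulk tissue, fewer blood cells, less RNA per blood cell and less of any part that came from brain cells cannot be told apart.

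Hbb (rn6 chromosome 1, 168971274 to 168972725, minus strand, 1 isoform) measured 128, 355 and 230 CPM in wild-type rats 1 to 3. In heterozygous rats 1 to 3 it was at 91.0, 106 and 182 CPM, and among homozygous rats 1 to 3 at 108, 133 and 140 CPM. Wild-type rats 2 and 3 and heterozygous rat 3 were the highest, while wild-type rat 1 lay inside the homozygous range. The groups overlapped in each comparison. The means were 238 ± 114 CPM (wild type), 126 ± 48.6 (heterozygous) and 127 ± 17.0 (homozygous; SD, n = 3 each). Counting error was small beside these differences: the exact Poisson 95% interval of the highest library ran from 349 to 361 CPM.

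Alas2 (rn6 chromosome X, 23181821 to 23192068, minus strand, 2 isoforms) measured 1.66, 3.74 and 3.60 CPM in wild-type rats 1 to 3. It was at 1.204, 1.67 and 2.77 CPM in heterozygous rats 1 to 3 and at 1.54, 1.54 and 2.03 CPM among homozygous rats 1 to 3. The highest 3 libraries came in the same order as for Hbb, and wild-type rat 1 again lay within the range of the mutants. The means were 3.00 ± 1.16, 1.88 ± 0.806 and 1.70 ± 0.283 CPM in the order wild-type, heterozygous and homozygous. The assembly split Alas2 into 3 loci on this strand, and a locus of the neighbour Apex2 covers the same stretch on the plus strand. Whether counting used the strand was not given in the sources used here, so part of the Alas2 count is uncertain. The sum of the 3 loci was 6.09 ± 1.61 CPM (wild type), 3.64 ± 1.16 (heterozygous) and 3.60 ± 0.326 (homozygous).

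Slc4a1 (rn6 chromosome 10, 90296141 to 90312411, minus strand, 3 isoforms) did not keep this order of libraries. It measured 5.89, 2.65 and 2.498 CPM in wild-type rats 1 to 3, with wild-type rat 1, unremarkable for Hbb and Alas2, the highest of all. In heterozygous rats 1 to 3 it was at 1.12, 1.23 and 4.45 CPM, with only heterozygous rat 3 high. Among homozygous rats 1 to 3 it was at 1.45, 1.05 and 1.35 CPM, every one below every wild-type library. The means were 3.68 ± 1.92, 2.26 ± 1.89 and 1.29 ± 0.211 CPM. A single isoform, the annotated transcript, carried 99.3% of the counts, so the assembled variants had little weight in the CPM. They had much more in TPM, where division by their short length gave a few reads 0.11 to 0.32 TPM in wild-type rats 2 and 3 and heterozygous rats 1 and 2, and 0 in the other libraries.

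The neutrophil genes lie on chromosome 2, S100a8 at 190073815 to 190074354 on the plus strand and S100a9 at 190097438 to 190100276 on the minus strand (rn6), each with 1 isoform. S100a8 measured 2.42, 1.04 and 0.4995 CPM in wild-type rats 1 to 3. It was at 0.153, 0.101 and 1.52 CPM in heterozygous rats 1 to 3, and at 0.264, 0.186 and 0.150 CPM among homozygous rats 1 to 3. The order of the highest 4 libraries was that of Slc4a1: wild-type rat 1, heterozygous rat 3, then wild-type rats 2 and 3. S100a8 rested on few reads in the low libraries, with 5 to 8 counts in each of heterozygous rats 1 and 2 and the homozygous rats. The interval of heterozygous rat 2, from 0.0327 to 0.235 CPM, spans the estimates of heterozygous rat 1 and of homozygous rats 2 and 3. These low libraries were not separable at this depth.

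S100a9 measured 5.15, 2.05 and 0.874 CPM in wild-type rats 1 to 3. It was at 0.525, 0.604 and 4.87 CPM in heterozygous rats 1 to 3, and at 0.573, 0.443 and 0.652 CPM among homozygous rats 1 to 3. Its highest 4 libraries were again wild-type rat 1, heterozygous rat 3 and wild-type rats 2 and 3, in this order. The means were 2.69 ± 2.21 CPM (wild type), 2.00 ± 2.48 (heterozygous) and 0.556 ± 0.106 (homozygous), against 1.32 ± 0.991, 0.591 ± 0.803 and 0.200 ± 0.0582 CPM for S100a8 (SD, n = 3 each). Among heterozygous rats the SD exceeded the mean for both genes, because heterozygous rat 3 stood far above the other two.

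**Figure D1:**
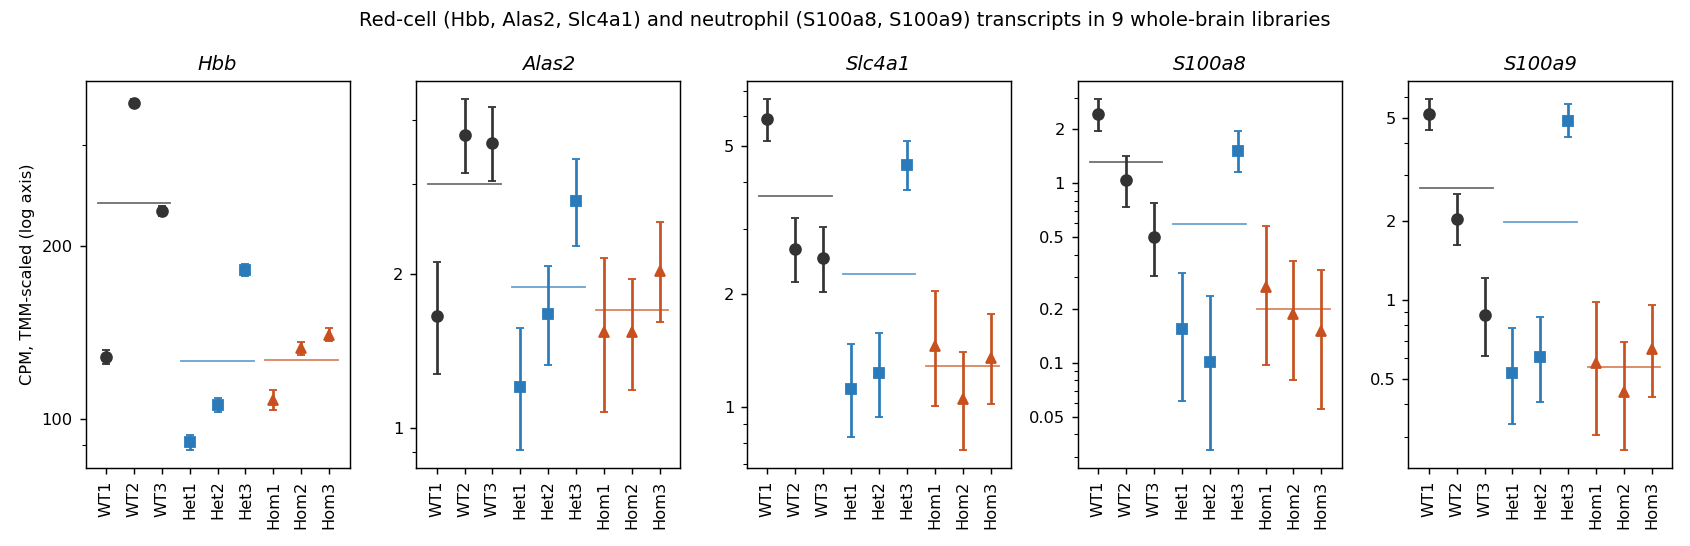
CPM on a log axis for each of the 5 genes in the 9 libraries (WT, wild type; Het, heterozygous; Hom, homozygous), with exact Poisson 95% intervals for counting error and a line at each genotype mean. Hbb and Alas2 are highest in WT2 and WT3, while Slc4a1, S100a8 and S100a9 are highest in WT1 and Het3.

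The genes differed in how widely they ranged. The highest library stood above the lowest 3.10-fold for Alas2, 3.91-fold for Hbb, 5.61-fold for Slc4a1, 11.6-fold for S100a9 and 24.0-fold for S100a8. The biological coefficient of variation within genotypes, as edgeR estimates it, was 0.304 for Hbb, 0.322 for Alas2, 0.441 for Slc4a1, 0.690 for S100a9 and 0.723 for S100a8, beside 0.277 over all loci tested. Among named loci of similar level these values lay at percentile 98.8 for Hbb, 98.0 for S100a9, 96.3 for S100a8, 96.1 for Slc4a1 and 85.9 for Alas2. The within-genotype spread of homozygous rats was the narrowest of the 3 genotypes for every one of the 5 genes on this scale, with SDs of 13.4% to 29.1% of the mean, against 38.6% to 136% in the other genotypes.

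Homozygous rats were compared with wild type to ask whether these transcripts differ with full loss of Lrap. All 5 estimates were lower in homozygous rats, and none passed the threshold (edgeR quasi-likelihood test, adjusted p = 0.544 for each), so that 0 of 5 were called. Over all loci tested 0% were called in this comparison. S100a8 had a log2 fold change of -2.76 (SE 0.98) and S100a9 of -2.27 (SE 0.93). For the red-cell genes it was -1.53 (SE 0.53) for Slc4a1, -0.91 (SE 0.34) for Hbb and -0.81 (SE 0.37) for Alas2. The median was -1.53 over the 5 genes, -0.07 over all loci tested and 0.14 over named loci. Unadjusted edgeR p ran from 0.0147 for Slc4a1 to 0.0489 for Alas2, so all 5 lay below 0.05, where 4.25% of all loci were lower at that level. In homozygous rats every library lay below every wild-type library for 3 of the 5 genes, Slc4a1, S100a8 and S100a9. For all loci tested this share was 6.09%. The genes were chosen with an earlier result of these samples known, so these shares describe the set and are no independent evidence of a difference.

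Wild-type rats weighed on these values one by one. Without wild-type rat 1 the log2 fold change was -1.01 for Slc4a1 and -1.38 for S100a9, and it was -1.97 for S100a8. Without wild-type rat 2 it was -0.50 for Hbb. Exact permutation of log2(CPM + 0.5) gave p = 0.1 for Slc4a1, S100a8 and S100a9, the smallest that 3 against 3 allows, and p = 0.3 for Hbb and 0.2 for Alas2 (two-sided).

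Heterozygous rats were compared with wild type to ask about loss of 1 allele. Again all 5 estimates were lower and 0 of 5 passed (edgeR, adjusted p from 0.981 to 0.983), with 0.00768% of all loci called. Hbb had a log2 fold change of -0.92 (SE 0.34), close to its value in homozygous rats. The others were at -1.22 (SE 0.82) for S100a8, -0.71 (SE 0.51) for Slc4a1, -0.68 (SE 0.36) for Alas2 and -0.45 (SE 0.82) for S100a9. Unadjusted edgeR p was below 0.05 for Hbb alone (0.0211), beside 2.35% of all loci lower at that level. For no member did every heterozygous library lie below every wild-type one, a separation that 3.8% of loci showed. Heterozygous rat 3 decided much of this: without it the log2 fold change was -3.35 for S100a8, -2.24 for S100a9 and -1.64 for Slc4a1. Without wild-type rat 1 it was 0.45 for S100a9, -0.43 for S100a8 and -0.19 for Slc4a1. Both comparisons use the same 3 wild-type rats.

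Between homozygous and heterozygous rats 0 of 5 genes passed (edgeR, adjusted p = 1 for each) and 0.00256% of all loci did. Hbb had a log2 fold change of 0.01 (SE 0.34), whose sign depended on the scaling, and Alas2 one of -0.13 (SE 0.37). The neutrophil genes were at -1.82 (SE 0.93) for S100a9 and -1.54 (SE 1.04) for S100a8, and Slc4a1 at -0.81 (SE 0.53). No unadjusted p of the 5 was below 0.05, where 1.2% of loci were lower, and no gene separated the genotypes, which 4.12% of loci did in this direction. Without heterozygous rat 3 these log2 fold changes were -0.03 for S100a9, 0.60 for S100a8, 0.12 for Slc4a1 and 0.25 for Alas2.

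**Figure D2:**
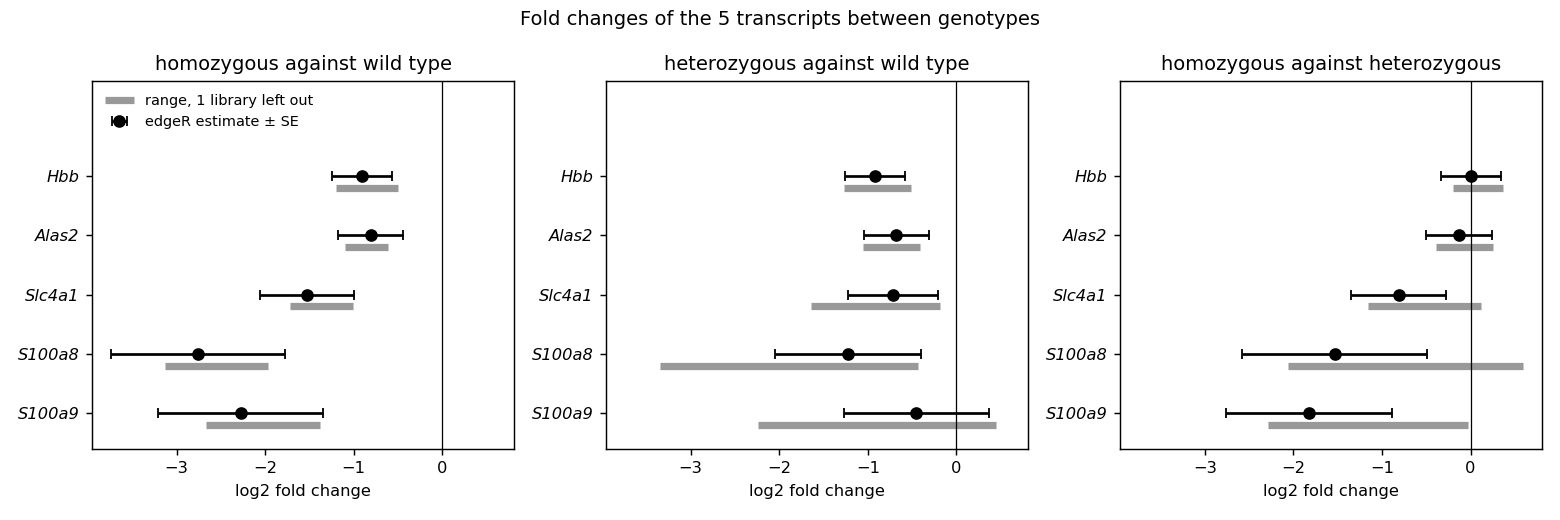
Log2 fold changes of the 5 genes in 3 genotype comparisons, with points and bars for the edgeR estimate ± SE and grey bars for the range when each of the 9 libraries is left out in turn. The grey bars stay below 0 for homozygous against wild type and cross 0 for S100a9 in heterozygous against wild type and for 4 of the 5 genes in homozygous against heterozygous.

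As a slope per deleted allele, the log2 change was -0.45 (SE 0.17) for Hbb, -0.41 (SE 0.18) for Alas2, -0.76 (SE 0.25) for Slc4a1, -1.35 (SE 0.45) for S100a8 and -1.07 (SE 0.47) for S100a9. None of the 5 passed (edgeR, adjusted p from 0.444 to 0.458), and 0% of all loci did. All 5 had an unadjusted p below 0.05, beside 5.15% of loci that were lower at this level. The order of the means was wild type above heterozygous above homozygous for Slc4a1, Alas2, S100a8 and S100a9, but the mutant means differed by less than the larger of their SDs for each of the 5 genes, and without heterozygous rat 3 the fitted heterozygous level of Slc4a1, Alas2 and S100a8 lay below the homozygous one. Exact permutation of the slope on log2(CPM + 0.5) gave p from 0.0571 for Slc4a1 to 0.123 for Alas2 over 1680 arrangements. On log2(TPM + 0.1) it gave p from 0.00119 for Slc4a1 to 0.025 for S100a8. With the annotated Slc4a1 isoform alone, an alternative chosen after the data were seen, the Slc4a1 slope was -0.75 with an exact permutation p of 0.0107. On the TPM scale the median over named loci itself sloped by -0.27 per allele, and the slopes of the members there, by locus, ran from -0.72 for Alas2 to -1.47 for S100a8.

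By Pearson r the 5 genes fell into 2 sets that did not follow the cell type. Across the 9 libraries, on log2(CPM + 0.5), Hbb followed Alas2 with Pearson r = 0.949 and Spearman rho = 0.85. Slc4a1 followed the neutrophil genes, with r = 0.977 and rho = 0.85 for S100a8 and r = 0.962 and rho = 0.95 for S100a9. S100a8 followed S100a9 with r = 0.970 and rho = 0.733. These were the 4 of 10 pairs whose Pearson r passed, with exact permutation p from 2.2e-05 to 0.000295 and Benjamini-Hochberg adjusted p from 0.00022 to 0.000737 over the 10 pairs (two-sided). By Spearman's rho the pair of S100a8 and S100a9 did not pass (exact permutation p = 0.0311, adjusted 0.0778). The remaining 6 pairs, each joining Hbb or Alas2 with Slc4a1 or a neutrophil gene, had r from 0.372 to 0.454, with exact permutation p from 0.215 to 0.327 and adjusted p = 0.327. Their rho ran from 0.35 for Alas2 with S100a8 to 0.683 for Alas2 with S100a9 (exact permutation p = 0.0503, adjusted 0.101). By rank the 2 sets were thus less clearly apart.

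By Pearson r the sets were also apart within genotypes. Wild-type rat 1 and heterozygous rat 3 keep their weight there, as the highest of their groups for Slc4a1, S100a8 and S100a9. After each genotype's mean was subtracted, r was 0.928 for Hbb with Alas2, 0.960 and 0.968 for Slc4a1 with S100a8 and S100a9, and 0.987 for S100a8 with S100a9. For the remaining 6 pairs it lay between 0.02 and 0.14. Without the 2 libraries farthest from the median of the first gene, r was 0.913 for Hbb with Alas2, 0.909 for Slc4a1 with S100a8, 0.860 for Slc4a1 with S100a9 and 0.933 for S100a8 with S100a9 (exact permutation p = 0.00595, 0.00675, 0.00159 and 0.0165). Spearman's rho of these pairs, in the same order and libraries, was 0.679, 0.679, 0.893 and 0.429. For Alas2 with S100a9, without wild-type rats 2 and 3, rho was 0.75. The separation of Slc4a1 from Alas2 rested on wild-type rat 1 and heterozygous rat 3: without these, r rose from 0.454 to 0.954 (exact permutation p = 0.00913). Without wild-type rat 1 alone, 7 of the 10 pairs passed. The spike-in patterns hold 5 and 4 libraries, too few for a correlation within each.

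**Figure D3:**
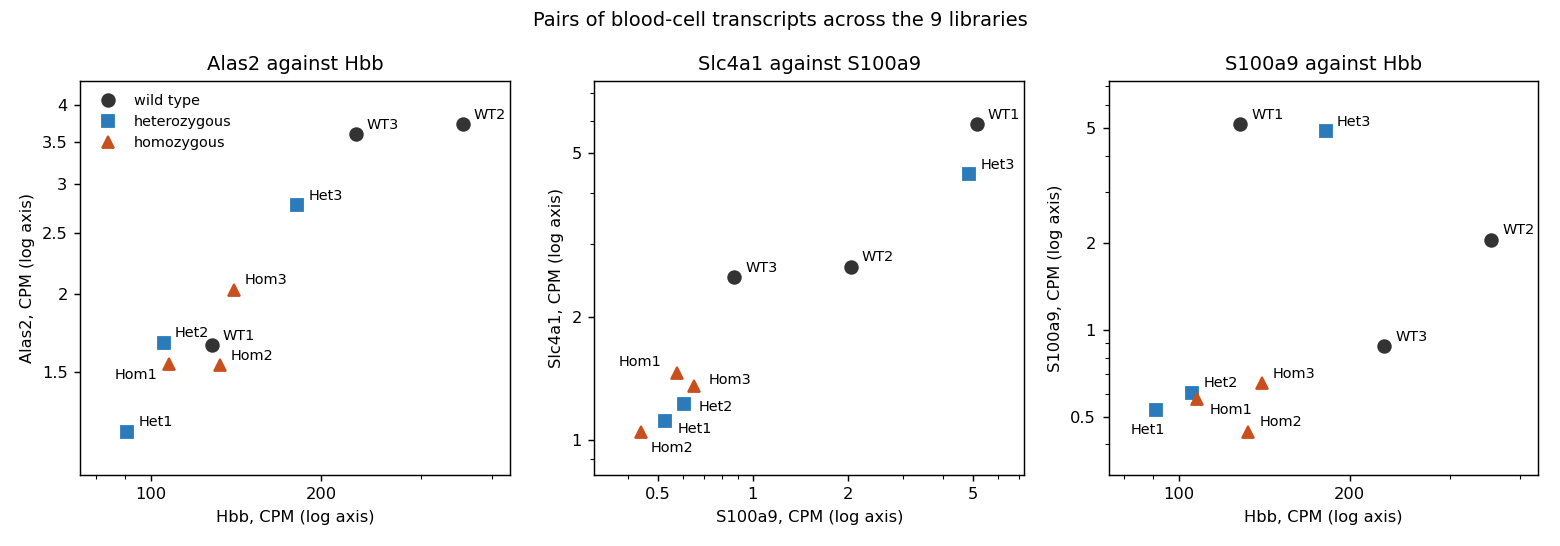
CPM of 1 gene against another in each of the 9 libraries, both axes logarithmic, coloured by genotype. Alas2 rises with Hbb (r = 0.949) and Slc4a1 with S100a9 (r = 0.962), while S100a9 is highest in WT1, where Hbb is 128 CPM, and in Het3, where Hbb is 182 CPM (r = 0.381).

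Ratios within a library do not depend on its scaling. For Slc4a1 they are given by its annotated isoform, because of the short variants. The TPM ratio of Hbb to Alas2 stayed between 66.7 and 102 in the 9 libraries, a 1.53-fold range. Hbb over Slc4a1 was lowest in wild-type rat 1, at 191, and in heterozygous rat 3, at 351, and lay between 615 and 1193 in the other libraries. By the TPM of the whole locus heterozygous rat 3 was not apart there, with 351 beside 378 and 351 in heterozygous rats 1 and 2. Hbb over S100a9 was 24.1 in wild-type rat 1 and 36.2 in heterozygous rat 3, and between 166 and 293 in the other libraries. Hbb over S100a8 ranged from 22.7 to 464. Per unit of Hbb, the neutrophil transcripts of those rats were thus the most plentiful of the 9 libraries. S100a9 over S100a8, the subunits of calprotectin, lay between 0.774 and 2.74. Slc4a1 over S100a9 ranged 3.06-fold, from 0.103 to 0.315, and Slc4a1 over S100a8 ranged 5.16-fold, so ratios among these 3 genes were not constant either.

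Other globin loci were also highest in wild-type rats 2 and 3. Hba-a1 and Hba-a2, alpha-globin copies that share 1 locus, measured 213, 324 and 423 CPM in wild-type rats 1 to 3. In heterozygous rats 1 to 3 the locus was at 151, 178 and 282 CPM, and among homozygous rats 1 to 3 at 257, 220 and 233 CPM. Its log2 fold change in homozygous against wild-type rats was -0.43 (SE 0.26). LOC103694855, a locus of the globin list on chromosome 1 at 168944226 to 168965566 near Hbb, had the pattern most like Hbb of 13379 genes compared, with r = 0.997 over the 9 libraries, and a log2 fold change of -0.88 (SE 0.32). Globin copies are near-identical, so the way reads were divided among them by the authors' estimate is uncertain. Of the 4 tested loci of the globin list besides Hbb, 4 were lower in homozygous rats under each of the 4 scalings run. None passed (edgeR, adjusted p from 0.544 to 0.889). Ahsp, which encodes a chaperone of free alpha globin and was singled out after its values were seen, was high in heterozygous rat 3 and in wild-type rats. It had 42, 31 and 22 counts in wild-type rats 1 to 3, 7, 10 and 40 in heterozygous rats 1 to 3, and 4, 7 and 15 among homozygous rats 1 to 3.

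The other enzymes of haem synthesis did not move with Alas2. Of 8 tested besides it, 1 was lower and 7 were higher in homozygous than in wild-type rats, at a median log2 fold change of 0.24 and none passing. Alas1, the housekeeping form of the same enzyme, was at 18.6 ± 5.76 CPM in wild-type and 26.3 ± 2.13 in homozygous rats. Alad, the enzyme that follows it, was at 6.13 ± 1.51 and 10.2 ± 0.365 CPM. Those directions depended on the scaling: with library totals 6 of the 8 were lower. Of 13 tested genes of the red-cell membrane and erythroid list besides Slc4a1, 7 were lower and 6 higher, with a median of -0.02. With library totals 11 of the 13 were lower. The most abundant of them by mean TPM, Bpgm (bisphosphoglycerate mutase), Add2 (an adducin) and Tmcc2, are also expressed by brain cells, and were at 28.5 to 38.9, 165 to 194 and 47.7 to 98.0 CPM over the libraries. Their log2 fold changes were 0.055, 0.087 and 0.52.

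Of 11 neutrophil granule genes, picked for description after their values were seen, 9 had their highest 2 libraries in wild-type rat 1 and heterozygous rat 3. The exceptions were Prtn3, the gene of proteinase 3, which was highest in homozygous rat 2 (15 counts, beside 11 in heterozygous rat 3 and 6 in wild-type rat 1), and Mmp9, where homozygous rat 2 (1.89 CPM) lay above wild-type rat 1 (1.53 CPM). Mpo, which encodes the myeloperoxidase of primary granules, had 84 counts in wild-type rat 1 and 54 in heterozygous rat 3, and 0 to 6 in each of the other 7 libraries. The defensin gene Defa5 had 96 and 52 counts in those libraries and 0 to 4 in the others. Camp, the cathelicidin of secondary granules, had 63 and 48 counts against 2 to 10, and Ngp, another secondary granule gene, 61 and 49 against 1 to 11. Summed over 6 genes of primary granules (Mpo, Elane, Prtn3, Ctsg, Defa5 and RatNP-3b), wild-type rat 1 had 7.16 CPM, heterozygous rat 3 had 4.06 CPM, and each of the others had 0.1003 to 0.559 CPM. Over 5 genes of later granules (Lcn2, Ngp, Camp, Mmp8 and Mmp9) the same libraries had 6.04 and 5.91 CPM, and the others 1.69 to 2.54 CPM. Defensin copies are similar in sequence, so their division is uncertain. Car1, a carbonic anhydrase of red cells, had 38 counts in wild-type rat 1 and 17 in heterozygous rat 3, and 0 to 3 elsewhere.

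Of the 30 genes of the neutrophil list 23 were found in the assembly, and 11 of these were tested. Of the 9 tested besides the members, 8 were lower in homozygous than in wild-type rats and 1, Mmp9, was higher, at a median log2 fold change of -0.74. None passed (edgeR, adjusted p of 0.544 or more), and 1 of the 9, Fcnb, a ficolin, was below 0.05 before adjustment (log2 fold change -2.69, SE 1.14). Of all loci tested 4.25% were lower at that level. With library totals 9 of the 9 were lower. Ncf1, a subunit of the phagocyte oxidase that microglia also express, had the next highest mean TPM among the tested genes of the list after the members and ranged from 2.14 to 3.77 CPM, with a log2 fold change of -0.13. The summed TPM of the list without the members was 15.2 in wild-type rat 1 and 6.64 in heterozygous rat 3, against 1.35 to 3.46 in the others.

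**Figure D4:**
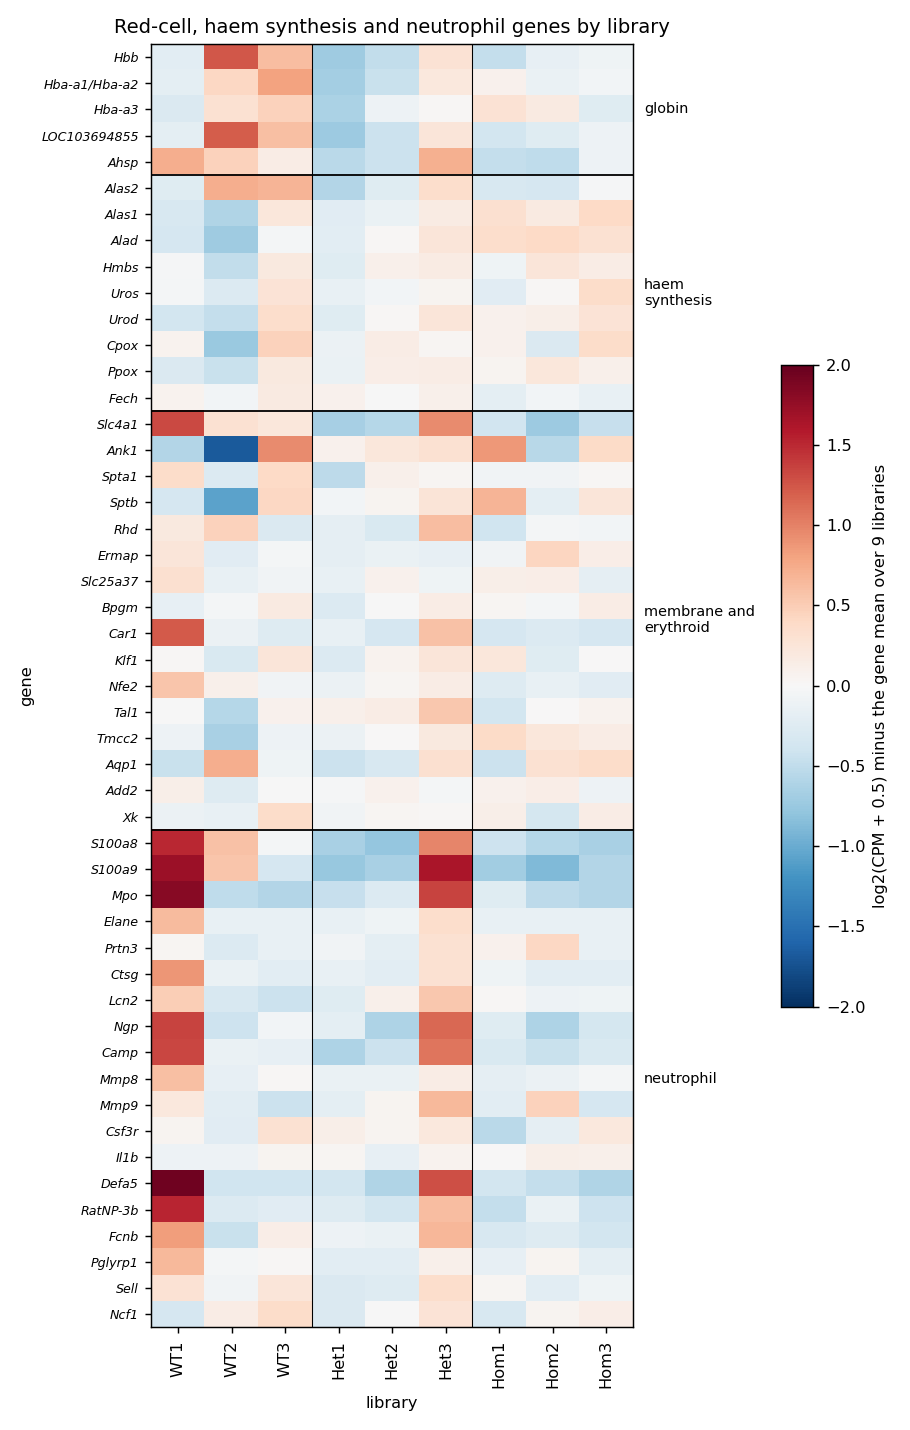
Log2(CPM + 0.5) minus the mean over the 9 libraries for 49 genes or shared loci of the globin, haem synthesis, red-cell membrane and neutrophil lists with at least 10 counts in at least 1 library, with colour clipped at 2 in each direction. Globin loci and Alas2 are high in WT2 and WT3, and Slc4a1, Car1 and most granule genes in WT1 and Het3, with Prtn3 and Mmp9 as exceptions that are high in Hom2 too.

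Markers of platelets, lymphocytes, and monocytes together with perivascular macrophages were mixed in level and direction. The last list is not one of blood cells alone. Of 4 tested platelet genes, 4 were lower in homozygous rats under each of the 4 scalings run, at a median log2 fold change of -0.43 and none passing. Pf4, a platelet chemokine, was highest in heterozygous rat 3 at 1.52 CPM and lay between 0.263 and 0.999 CPM in the others. Of 4 tested lymphocyte genes 1 was lower and 3 were higher, and with library totals 4 of 4 were lower. Cd3e, a chain of the T-cell receptor complex, ranged from 0.075 to 0.382 CPM. Cd4, a co-receptor of helper T cells that cells of the macrophage lineage also carry in rats, ranged from 3.19 to 6.39 CPM and was lowest in wild-type rat 1. Of 8 tested genes of monocytes and perivascular macrophages 2 were lower and 6 higher in homozygous rats, at a median log2 fold change of 0.44. None passed, and 1 of the 6 was below 0.05 before adjustment, beside 3566 of all 39057 loci in either direction. With library totals 3 were lower and 5 higher. Lyz2, a lysozyme of myeloid cells, ranged from 19.0 to 33.1 CPM and was highest in heterozygous rat 3, and Ccr2, a receptor of blood monocytes, had no count in any library.

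Genes of cells that live in the brain were on the other side in CPM. Of 9 tested microglial genes 8 were higher in homozygous rats and of 8 endothelial genes 7 were, with medians of 0.47 and 0.42 and none passing (edgeR). Before adjustment 5 of the 9 microglial genes and 1 of the 8 endothelial genes, Cldn5, were higher at p below 0.05 (edgeR). Over all 39057 loci tested 3566 were below 0.05 in either direction, and 1659 of them were lower. Csf1r, the receptor that microglia need to survive, was at 46.3 ± 7.15 CPM in wild-type and 58.1 ± 4.61 in homozygous rats. Cldn5, a tight junction gene of brain endothelium, was at 12.7 ± 2.93 and 22.5 ± 2.15 CPM. Its unadjusted edgeR p of 0.00142 (adjusted 0.544) was the lowest of the 8 endothelial genes and below that of any of the 5 members. Flt1, the 1 endothelial gene that was lower, had a log2 fold change of -0.036 (SE 0.17), and Slc2a1 had one of 0.44 (SE 0.21). With library totals 6 of the 9 microglial and 5 of the 8 endothelial genes were higher. Of 8 general brain genes, among them Snap25 and Mbp, 8 were higher too (median 0.22), and with library totals 7 were lower. Summed TPM was lower in homozygous than in wild-type rats, at 34.8 ± 2.28 against 46.2 ± 9.71 for the microglial list. For the endothelial list it was 26.8 ± 0.598 against 34.85 ± 11.5 (SD, n = 3 each). On TPM the median log2 fold change of named loci was -0.55. Of 9 tested genes of haem and haemoglobin clearance 2 were lower and 7 higher, and with library totals 6 of the 9 were lower. Fth1, the heavy chain of the iron store ferritin, was at 226 ± 27.4 CPM in wild-type and 170 ± 21.5 in homozygous rats, while the light chain Ftl1 was at 30.7 ± 7.26 and 41.6 ± 4.30 CPM. The part of these lists in the values of the members was not tested.

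Outside these lists, the named genes whose CPM most resembled each member's were sought among 13379 genes with a mean of at least 1 CPM, as a description over 9 libraries that share depth and scaling. For Hbb these were, after LOC103694855, the neuronal transcription factor gene Neurod6 (r = 0.925) and Lsm5, which encodes a subunit of an RNA-binding ring (r = 0.923). For Alas2 they were LOC103694855 (r = 0.953), Erlin1 (0.917) and Cops9 (0.907). For Slc4a1 they were Mki67, the marker of dividing cells (r = 0.899), Ighm, the heavy chain of immunoglobulin M (0.861), and Itgb3, an integrin chain of platelets (0.861). For S100a8 they were Mki67 (r = 0.848), AABR07035375.1 (0.809) and Ighm (0.799), and for S100a9 Itgb3 (0.857), Ighm (0.849) and AABR07035375.1 (0.832). Slc4a1 and the neutrophil genes thus shared neighbours with each other and none with Hbb or Alas2. Ighm was at 3.54 CPM in wild-type rat 1 and 3.85 in heterozygous rat 3, and between 0.559 and 1.42 CPM in the others. Mki67 was at 3.24 CPM in wild-type rat 1 and 2.20 in heterozygous rat 3, followed by 2.05 in wild-type rat 3, and at 1.28 to 1.504 CPM in the others.

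Other library properties moved with part of these values. Wild-type rat 2, the highest library for Hbb and Alas2, also had the highest mitochondrial share and the spike-in pattern of the homozygous rats. All homozygous rats share that pattern with no wild-type or heterozygous library but wild-type rat 2, so a fit with the pattern as a covariate in effect sets the homozygous rats against wild-type rat 2 alone and is given as values. In it the log2 fold change of Hbb in homozygous against wild-type rats was -1.49 and that of Alas2 -1.13, whereas Slc4a1 was at -1.05, S100a8 at -2.42 and S100a9 at -1.88. It gives no check of the wild-type group, and its lone wild-type library is assumed to vary like the others. Wild-type rat 1 and heterozygous rat 3 share the other pattern with 3 libraries in which Slc4a1, S100a8 and S100a9 were lower. Their mitochondrial shares were 21.3% and 15.1%. The part of mitochondrial share in the result was not tested, nor was that of the spike-in pattern in the values of these rats.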

How the data were processed

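Whole-brain RNA of 9 rats was sequenced as stranded, ribosome-depleted paired reads, per the labels' protocols. The labels number the animals as separate rats. The authors deposited RSEM expected counts, estimated counts per locus and isoform that need not be whole, and TPM, which they scaled by transcript length and library. Loci are those of a StringTie assembly named from Ensembl, per the file contents. Cutadapt, HISAT2, StringTie, RSEM and rn6 are named in the submitters' processing notes, without versions or order.

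Here expected counts were rounded. Loci that passed filterByExpr were scaled by TMM and fitted with edgeR 4.0.16 (quasi-likelihood, robust, R 4.3.3), all 9 libraries and genotype only. Adjusted p is Benjamini-Hochberg over all loci tested, with a threshold of 0.05. The 99 spike-in loci stayed out of library sizes and tests. Correlations used exact permutation over all orders of the libraries in Python 3.11.15 with numpy 2.4.6. Ranks and Poisson intervals came from scipy 1.17.1. Intervals speak of counting error alone, because these reads carry no molecular identifiers and may repeat a molecule. The scripts were checked on simulated counts. Libraries of a genotype differed beyond sampling noise (chi-square per locus 24.4 or more). The members, 11 gene lists and tests were chosen with earlier results of these data known. Genes named besides the members are some of the 3 tested genes of highest mean TPM per list, the 3 genes most like each member, and globin copies. Others, among them Ahsp, the granule genes, Car1, Fcnb and Ccr2, were named after their values were seen. Alternatives covered DESeq2 1.42.0, limma-voom 3.58.1, scalings, filters, groups in the fit, the replicate number, the spike-in pattern, TPM, the deposited isoform TPM of Slc4a1 (added after the data were seen) and each library left out.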

Additional observations from a re-analysis of the deposited data

How the results depend on the processing

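For homozygous against wild-type rats the log2 fold changes of all 5 genes were negative, in each of the 20 alternatives run for all of them, and no gene passed in the 19 of them fitted across all loci. The other, on TPM with exact permutation, cannot go below p = 0.1 and so could not pass. They ranged from -1.59 to -0.50 for Hbb, -1.87 to -1.01 for Slc4a1, -1.44 to -0.62 for Alas2, -3.13 to -1.97 for S100a8 and -2.67 to -1.38 for S100a9, with edgeR, DESeq2 or limma-voom adjusted p from 0.0547 to 0.992. The lowest came with the spike-in pattern as covariate, where wild-type rat 2 alone stands for the wild types. Slopes per deleted allele also stayed negative in all 19 alternatives run for all 5 genes. No gene passed in the 18 fits across all loci, while on log2(TPM + 0.1) all 5 slopes had an exact permutation p below 0.05, unadjusted, from 0.00119 to 0.025. DESeq2 called 33 loci for homozygous against wild type and 37 for the slope, where edgeR called 0 at 3566 and 4261 unadjusted, and 18 and 6 for the other comparisons, where edgeR called 3 and 1. Fits called 0 to 2189 loci for homozygous against wild type, the most with that covariate, 1 to 28 for heterozygous against wild type, 1 to 18 for homozygous against heterozygous and 0 to 37 for the slope. None of these calls was a member.

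Signs changed in the cases given here, and the cause was not tested. With each library left out in turn, S100a9 in heterozygous against wild-type rats ranged from -2.24 to 0.447. In homozygous against heterozygous rats this range was -0.196 to 0.372 for Hbb, -1.15 to 0.121 for Slc4a1, -0.389 to 0.253 for Alas2 and -2.07 to 0.596 for S100a8. The Hbb value there was -0.145 with library totals, -0.0505 with TMM factors from named genes, -0.0218 without a filter, -0.00239 with only the groups compared, -0.977 with the spike-in pattern as covariate and -0.308 on log2(TPM + 0.1). The count of correlated pairs was 4 to 7 with each library left out, 6 on TPM, 4 on TPM with the annotated Slc4a1 isoform alone (added after the data were seen) and 4 with the other settings. The median of named loci moved from 0.14 to -0.17 with library totals and to -0.55 on TPM for homozygous against wild type.

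Samples of the same number deviated from their group means with r from -0.108 to 0.269, beside -0.376 to 0.285 for samples of other numbers. These values showed no pairing by number and cannot exclude one. With the replicate block, Hbb in homozygous against wild-type rats was at -0.83 (edgeR adjusted p = 0.399) and the count of members called was 0 in each of the 4 comparisons. Fewer than 10 counts of S100a8 in each of 5 libraries limit what its low values can show.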
